A study of Mus musculus with 4 samples.

Results

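Cyclins and cyclin-dependent kinase (CDK) inhibitors were followed by RNA-seq through differentiation of female mouse embryonic stem cells (mESCs) and after depletion of Smarca4. The group is a list of 10 gene names, and no measured value enters its rule. It was chosen, however, with earlier results of these data known. Its members are the D-type cyclins Ccnd1, Ccnd2 and Ccnd3 and the E-type cyclins Ccne1 and Ccne2. The others are the A- and B-type cyclins Ccna2 and Ccnb2, and the CDK inhibitors Cdkn1b, Cdkn2a and Cdkn2b. All 10 were found among the 25965 genes measured, and all 10 were among the 13264 genes with a mean log2 CPM (counts per 1000000 reads) over the libraries of at least 0, the minimum used for comparisons with other genes.

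The 4 libraries came from female F1 cells of FVB/NJ dams and CAST/EiJ sires, with 1 library in each group. At day 0 the cells were undifferentiated mESCs in 2i medium, which holds inhibitors of MEK and of GSK3, and had received no virus, although the genotype entry of that library reads nonsilencing control. The other 3 libraries came from day 6 of differentiation in DME HiHi, a serum medium, after retroviral delivery of a short hairpin RNA on day 2 and puromycin from day 3. The hairpin was nonsilencing (Nons), the control, or 1 of 2 hairpins directed at Smarca4, named Smarca4.4 and Smarca4.6. The genotype entry of all 3 day 6 libraries, Nons included, reads Smarcc knockdown, and the growth entry names Xmas lines, so the groups were taken from the sample titles. Differentiation, medium, transduction and puromycin all separate day 0 from day 6 and cannot be told apart. With 1 library per group, no difference could be set against a spread between replicates, and no p-value was computed. The 95% intervals given are for counting error alone and compare 2 libraries, not 2 conditions.

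A cyclin is the regulatory subunit that switches on a CDK and directs it to its substrates. D-type cyclins respond to mitogens and activate CDK4 and CDK6 in G1. E-type cyclins activate CDK2 at the entry into S phase, A-type cyclins act through S phase and G2, and B-type cyclins with CDK1 drive mitosis. CDK4, CDK6 and CDK2 phosphorylate the RB protein, which then releases E2F transcription factors, and the E-type cyclin genes are themselves E2F targets. Cdkn1b encodes p27Kip1, which binds and inhibits mainly cyclin E- and cyclin A-CDK2. Cdkn2b encodes p15Ink4b, which blocks CDK4 and CDK6, and Cdkn2a encodes both p16Ink4a, another inhibitor of these kinases, and p19Arf, which acts on Mdm2. Undifferentiated mESCs are known for a short G1 phase.

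Cdkn2a and Cdkn2b lie together on chromosome 4 of the mm10 assembly, on the minus strand, with Cdkn2a at 89274473 to 89294653 and Cdkn2b at 89306289 to 89311032. In the GENCODE annotation, Cdkn2a has a pair of alternative first exons, 89294334 to 89294653 and 89281986 to 89282192. Both are spliced to the same second exon (89276645 to 89276985), which is read in different frames for p19Arf and p16Ink4a. The deposited table has 1 value for Cdkn2a, so the transcripts from its start sites were not told apart. The RefSeq start sites (GRCm38.p6, the mm10 assembly) are 12427 bases apart, and that of Cdkn2b lies 16413 bases from the upstream one. The sequence before each Cdkn2a start site is shown because the gene's single value joins both, with an E2F motif in capitals.
Cdkn2a, upstream start site, chr4:89294654-89294769, minus strand, 116 bases starting 150 bases before the start site: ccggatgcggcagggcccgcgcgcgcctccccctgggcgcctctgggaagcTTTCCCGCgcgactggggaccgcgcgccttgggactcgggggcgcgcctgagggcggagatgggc
Cdkn2a, downstream start site, chr4:89282193-89282342, minus strand, 150 bases up to the start site: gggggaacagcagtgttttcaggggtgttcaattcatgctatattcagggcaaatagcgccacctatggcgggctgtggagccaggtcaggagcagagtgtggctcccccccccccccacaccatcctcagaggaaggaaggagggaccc
The promoter of Ccnb2 is shown because this mitotic cyclin differed between libraries in which Ccna2 did so little, with CCAAT and TTTGAA in capitals.
Ccnb2, chr9:70421545-70421664, minus strand, 120 bases starting 110 bases before the start site: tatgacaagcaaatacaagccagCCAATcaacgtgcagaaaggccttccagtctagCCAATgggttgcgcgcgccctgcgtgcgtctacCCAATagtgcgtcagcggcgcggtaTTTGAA

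These motifs were searched on both strands of windows of 300 bases (250 before and 50 after a start site). The letters were TTTGGCGC, TTTCGCGC, TTTCCCGC and TTTGCCGC for E2F, TTTGAA for the cell cycle homology region (CHR), a motif of late cell cycle genes, and CCAAT for NF-Y. Windows were found for 6 of the 10 genes, 8 windows in all: 2 each for Ccnd3 and Cdkn2a and 1 each for Ccne1, Ccnb2, Cdkn1b and Cdkn2b. Ccnb2 held CCAAT at -87, -54 and -21, each 33 bases from the next, and the CHR letters at -167 and 5. At least 3 CCAAT motifs were present in 3.37% of 32851 windows. CHR letters were present in 17.9% of windows, and at least 2 times in 2.31%. The E2F letters were present in the upstream window of Cdkn2a, at -99, and in no window of the other 5 genes, against 2.26% of all windows. Cdkn1b also held 3 CCAAT motifs, at -161, -35 and, on the other strand, 46, and Cdkn2b held the CHR letters on the other strand at -161. CCAAT was also found in 1 window each of Ccnd3 and Cdkn2a. These matches are letters only, and no binding was measured.

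The other cyclins and Cdkn1b are on separate chromosomes or far apart. Coordinates are those of the gene in mm10: Ccnd1 on chromosome 7 (144929931 to 144939869), Ccnd2 on chromosome 6 (127125779 to 127151048), Ccnd3 on chromosome 17 (47505051 to 47599683), Ccne1 on chromosome 7 (38097984 to 38107534), Ccne2 on chromosome 4 (11191351 to 11204779), Ccna2 on chromosome 3 (36564866 to 36572150), Ccnb2 on chromosome 9 (70407689 to 70421554) and Cdkn1b on chromosome 6 (134920401 to 134925513). Ccnd1, Ccnd3, Ccne2 and Ccna2 each overlap a protein-coding gene on the opposite strand (LTO1, Bysl, Ints8 and Exosc9), and Ccnd2 overlaps 2 antisense genes. Whether reads were assigned by strand is not given in the sources used here, so the values of these 5 genes are uncertain to that extent. Ccne1, Ccnb2, Cdkn1b, Cdkn2a and Cdkn2b overlap no annotated gene.

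The libraries held 18599402 (day 0) to 47143739 reads (Smarca4.4), and 3 reads, the smallest level taken as measurable, were worth between 0.0636 and 0.161 CPM. Smarca4, the ATPase of the BAF remodelling complex, had a log2 CPM of 7.93 in undifferentiated cells, 7.84 with Nons, 7.04 with Smarca4.4 and 7.44 with Smarca4.6, so it was at 57.3% of Nons with the first hairpin and 75.8% with the second. Of 8 pluripotency markers, the summed level was 5867 CPM at day 0 and 1014 to 1274 CPM at day 6, although Pou5f1 had a log2 CPM of 9.45 or more in every library. Pou5f1 made up 915 of the 1274 CPM in Nons, and each of the other markers was at least 8.1-fold lower there than at day 0. Smooth muscle-type markers (5 genes, led by Tagln) went from 0.753 CPM to 1117 with Nons, 838 with Smarca4.4 and 721 with Smarca4.6. The 5 trophectoderm markers summed to 91.4 CPM at day 0 and 1323 to 1680 at day 6, and the day 6 sum came almost wholly from the keratins Krt8 and Krt18, while the defining Cdx2 and Elf5 had log2 CPM values below 0 at day 6. Neural progenitor markers (4 genes) summed to 57.7 CPM at day 0 and 363 to 393 at day 6, and the day 6 sum came almost wholly from Nes. Pax6 and Sox1 were lower in Nons than at day 0, at 7.34 against 13.2 CPM and 0.197 against 0.806 CPM. The fibroblast and primitive endoderm lists (8 and 5 genes) were at 31.8 CPM or less in all libraries. Both sums were higher in Nons than at day 0, at 28.9 against 11.5 CPM and 25.6 against 9.30 CPM. Genes of each list differed in both directions. The share of these cell types in the results on the cyclins was not tested, and in bulk RNA fewer cells of a type and less RNA per cell cannot be told apart.

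Of the 10 genes, 4 differed by at least 2-fold between day 0 and Nons day 6. Ccnd1 and Cdkn2a were lower, Cdkn1b and Cdkn2b were higher, and the E-, A- and B-type cyclins were within 1.41-fold. At least 2-fold differences in either direction were found in 31.9% of the 13264 genes, 19.6% higher and 12.3% lower, so a count of 4 of 10 was near the background of this comparison. The median difference of the 10 genes was -0.097 on the log2 scale, beside 0.031 for all genes compared. With either Smarca4 hairpin none of the 10 differed from Nons by 2-fold, a difference that 1.19% of genes reached in Smarca4.4, 1.82% in Smarca4.6 and 0.513% in both in the same direction. The differences from Nons ran from -0.42 (Cdkn1b) to 0.55 (Ccne2) in Smarca4.4 and from -0.34 (Cdkn1b) to 0.68 (Ccne2) in Smarca4.6. The medians of the 10 genes were 0.056 and -0.077, beside 0.038 and 0.064 for all genes.

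**Figure D1:**
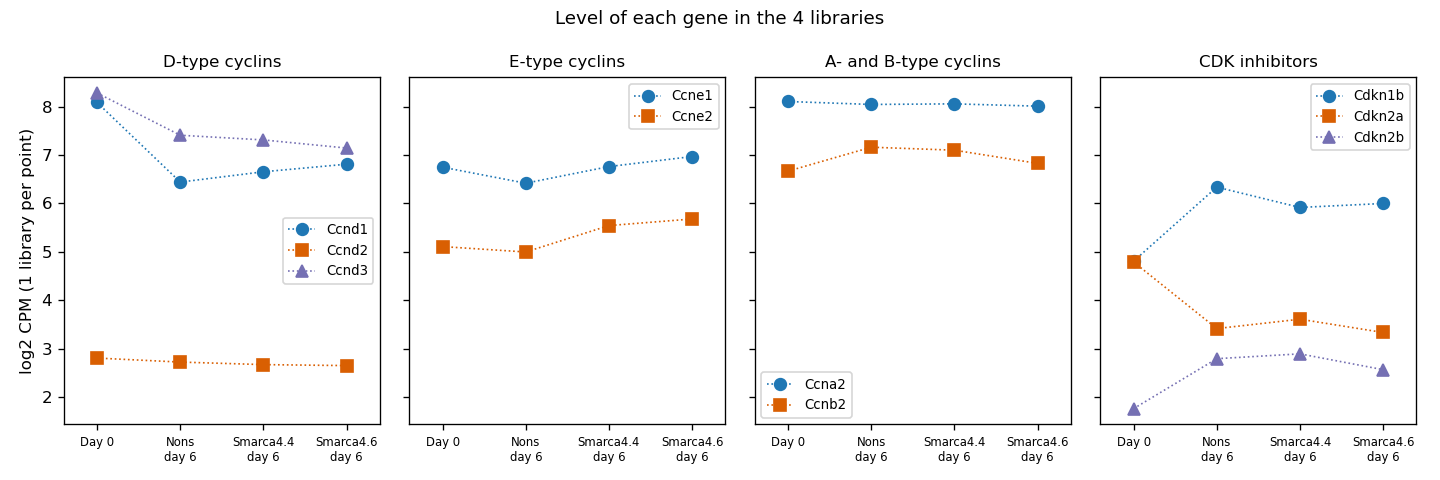
Level of each of the 10 genes in log2 CPM (vertical axis) in the day 0, Nons, Smarca4.4 and Smarca4.6 libraries, 1 point per library, with dotted lines only to join the points of a gene. Ccnd1 dropped from 8.09 at day 0 to 6.44 in Nons while Ccna2 stayed between 8.01 and 8.11, and Cdkn1b and Cdkn2a, at 4.81 and 4.79 at day 0, moved apart.

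The counting intervals show how far depth alone can resolve these genes. Between day 0 and Nons the interval lay above 0 for 3 of the 10 and below 0 for 5, beside 42.8% and 40.1% of all genes. In Smarca4.4 against Nons it lay above 0 for 4 and below 0 for 3 (34.4% and 24.3% of all genes), and in Smarca4.6 above 0 for 3 and below 0 for 3 (39.6% and 24.4%). These libraries are deep enough that most genes are resolved from counting error, and the counts of members were near those of all genes.

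**Figure D2:**
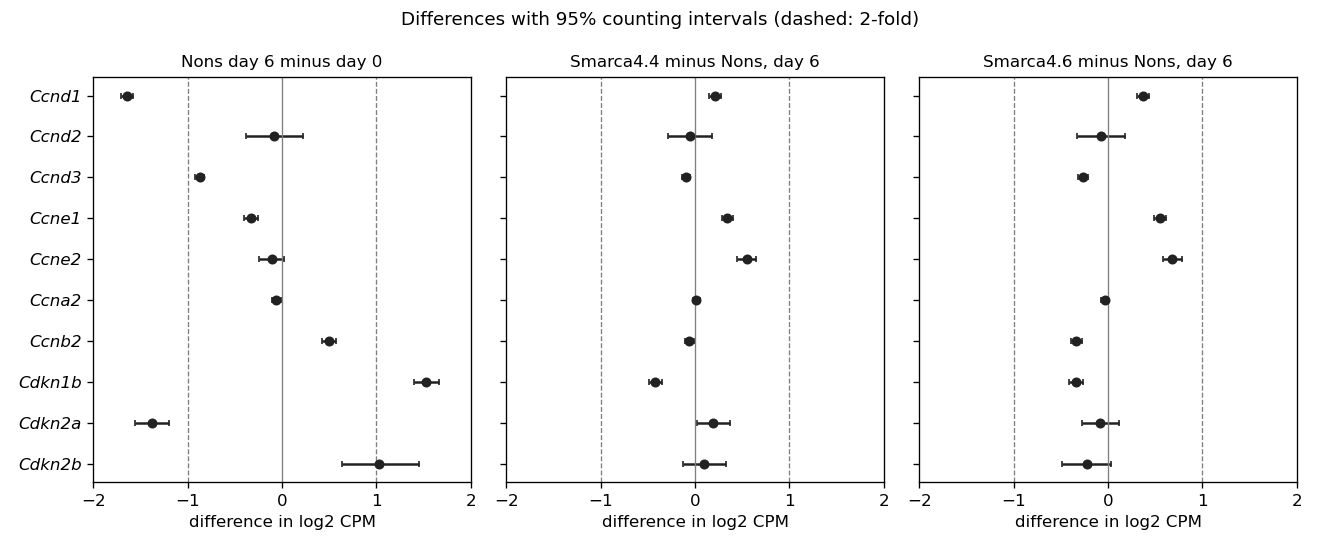
Difference in log2 CPM (horizontal axis) of each gene for Nons day 6 minus day 0, Smarca4.4 minus Nons and Smarca4.6 minus Nons, with 95% counting intervals and dashed lines at 2-fold. The E-type cyclins lie to the right of 0 in both hairpin panels (0.34 and 0.55 in Smarca4.4, 0.55 and 0.68 in Smarca4.6), Cdkn1b lies to the left in both, and no point of these panels reaches 2-fold.

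Among the D-type cyclins, Ccnd1 and Ccnd3 were both lower at day 6 and Ccnd2 was low throughout. Ccnd1 encodes cyclin D1, a target of mitogen signalling, and had a log2 CPM of 8.09 in undifferentiated cells, 6.44 with Nons, 6.66 with Smarca4.4 and 6.81 with Smarca4.6. It was highest in the undifferentiated cells and lowest in the control at day 6, where it was at 32.0% of the day 0 level, a difference of -1.65 (95% interval -1.71 to -1.58). The hairpin libraries lay between: Ccnd1 was higher than in Nons by 0.21 (0.15 to 0.27) with Smarca4.4 and by 0.37 (0.31 to 0.43) with Smarca4.6. Differences from Nons at least as large in the same direction were found in 23.0% and 15.1% of all genes, so differences of this size were common.

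Ccnd3, which encodes cyclin D3, had a log2 CPM of 8.28 in undifferentiated cells, 7.41 with Nons, 7.31 with Smarca4.4 and 7.15 with Smarca4.6. It was highest at day 0 and, unlike Ccnd1, lower in both hairpin libraries than in Nons. The difference between Nons and day 0 was -0.87 (-0.92 to -0.82), short of 2-fold, and those from Nons were -0.10 (-0.14 to -0.05) with Smarca4.4 and -0.26 (-0.32 to -0.21) with Smarca4.6. Because both genes are read in the same libraries, their ratio does not depend on the scaling between libraries. The log2 ratio of Ccnd1 to Ccnd3, per exonic length, was 0.70 (0.65 to 0.76) in undifferentiated cells, -0.070 (-0.13 to -0.015) with Nons, 0.24 (0.19 to 0.29) with Smarca4.4 and 0.56 (0.51 to 0.62) with Smarca4.6. Its 4 counting intervals did not overlap. The place of 0 on that scale rests on the length used for Ccnd3, whose annotated exons add up to 8775 bases but whose longest coding transcript has 2113. With the longest coding transcripts Ccnd1 was the lower of the pair in every library, and the spacing between libraries was the same.

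Ccnd2, which encodes cyclin D2, had a log2 CPM of 2.81 in undifferentiated cells, 2.72 with Nons, 2.67 with Smarca4.4 and 2.65 with Smarca4.6, from 130 to 302 reads. These levels are close together, and each of its intervals included 0 (-0.38 to 0.23 for Nons minus day 0, -0.29 to 0.18 with Smarca4.4 and -0.33 to 0.18 with Smarca4.6), so differences from Nons beyond 0.33 either way lay outside the intervals of both hairpin libraries. Per exonic length it was the lowest of the 10 genes in every library, at 0.667 to 0.743 CPM per kb. Summed per exonic length, the D-type cyclins were at 41.0% of their day 0 level in Nons, or 47.4% with the longest coding transcripts.

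The E-type cyclins were within 1.26-fold of day 0 in Nons and were, among the 7 cyclins of the group, those that differed most from Nons in each hairpin library. Ccne1, which encodes cyclin E1, had a log2 CPM of 6.75 in undifferentiated cells, 6.42 with Nons, 6.76 with Smarca4.4 and 6.97 with Smarca4.6. Nons was the lowest of the 4, by 0.33 (0.25 to 0.41) against day 0. Smarca4.4 was near the day 0 level and Smarca4.6 above it, with differences from Nons of 0.34 (0.28 to 0.40) and 0.55 (0.49 to 0.61).

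Ccne2, which encodes cyclin E2, had a log2 CPM of 5.11 in undifferentiated cells, 4.998 with Nons, 5.54 with Smarca4.4 and 5.68 with Smarca4.6. Both hairpin libraries were above both others. The difference was -0.11 (-0.25 to 0.02) between Nons and day 0, and from Nons it was 0.55 (0.45 to 0.64) with Smarca4.4 and 0.68 (0.58 to 0.78) with Smarca4.6, or 146% and 160% of Nons. Ccne2 in Smarca4.6 was the 1 member past 1.5-fold in a hairpin library, which 9.51% of all genes reached in Smarca4.6 and 6.4% in Smarca4.4. A difference at least as large as that of Ccne2 in both libraries and in the same direction was found in 2.06% of genes, and as large as that of Ccne1 in 4.37%. Both comparisons share the Nons library, so its own deviation enters both.

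Summed per exonic length, the E-type cyclins were at 50.3 CPM per kb in undifferentiated cells, 41.3 with Nons, 54.1 with Smarca4.4 and 61.8 with Smarca4.6, which is 131% and 150% of Nons. Ccne1 gave between 75.4% and 80.4% of this sum. Smarca4.6, in which Smarca4 was reduced less, had the larger difference for both genes: the direct difference Smarca4.6 minus Smarca4.4 was 0.21 (0.15 to 0.27) for Ccne1 and 0.14 (0.05 to 0.23) for Ccne2.

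Ccna2, which encodes cyclin A2, had the smallest range of levels in the group. Its log2 CPM was 8.11 in undifferentiated cells, 8.05 with Nons, 8.06 with Smarca4.4 and 8.01 with Smarca4.6, from 5132 to 12576 reads. The difference between Nons and day 0 was -0.061 (-0.11 to -0.014), and from Nons it was 0.013 (-0.024 to 0.049) with Smarca4.4 and -0.035 (-0.074 to 0.004) with Smarca4.6. The balance of E-type to A-type cyclin therefore differed between libraries: the log2 ratio of Ccne1 to Ccna2 per exonic length was -0.74 (-0.82 to -0.67) in undifferentiated cells, -1.01 (-1.06 to -0.96) with Nons, -0.68 (-0.73 to -0.63) with Smarca4.4 and -0.42 (-0.48 to -0.37) with Smarca4.6. Nons was lowest and Smarca4.6 highest, and the intervals of day 0 and Smarca4.4 overlapped.

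Ccnb2, the cyclin B2 gene, whose promoter holds the row of CCAAT motifs, had a log2 CPM of 6.67 in undifferentiated cells, 7.16 with Nons, 7.10 with Smarca4.4 and 6.83 with Smarca4.6. It was highest in Nons, by 0.49 (0.42 to 0.57) against day 0, and Smarca4.6 lay nearer to day 0 than to Nons. The difference from Nons was -0.062 (-0.11 to -0.012) with Smarca4.4 and -0.33 (-0.39 to -0.28) with Smarca4.6. The log2 ratio of Ccnb2 to Ccna2 followed the same order, at -0.024 (-0.10 to 0.053) in undifferentiated cells, 0.53 (0.49 to 0.58) with Nons, 0.46 (0.41 to 0.50) with Smarca4.4 and 0.23 (0.18 to 0.29) with Smarca4.6. With the longest coding transcripts the order was the same but the ratio was -0.0042 with Smarca4.4 and -0.23 with Smarca4.6, so which of the pair was higher in the hairpin libraries rests on the length used. The related mitotic cyclin Ccnb1 had a log2 CPM between 8.22 and 8.27 in all 4 libraries, so the difference of Ccnb2 was not shared by it.

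**Figure D3:**
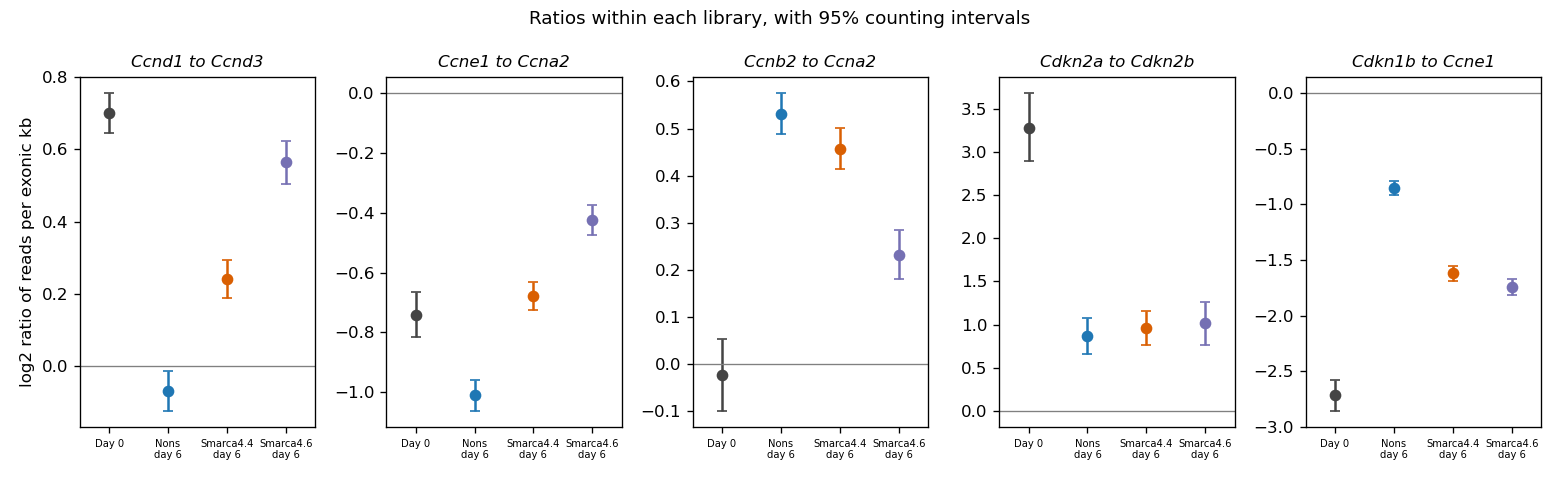
Log2 ratio of reads per exonic kb for 5 pairs of genes (vertical axis, a scale of its own in each panel) in each of the 4 libraries, with 95% counting intervals. For Ccnd1 to Ccnd3 and for Ccne1 to Ccna2 the Nons library is lowest (-0.070 and -1.01) and both hairpin libraries lie above it, whereas Cdkn2a to Cdkn2b separates day 0 (3.28) from all 3 day 6 libraries (0.87 to 1.01).

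Cdkn1b, the p27Kip1 gene, was the member with the largest increase between day 0 and Nons. Its log2 CPM was 4.81 in undifferentiated cells, 6.34 with Nons, 5.92 with Smarca4.4 and 6.00 with Smarca4.6. All 3 day 6 libraries were far above day 0, with Nons highest, at 289% of the day 0 level or a difference of 1.53 (1.40 to 1.67). From Nons the difference was -0.42 (-0.49 to -0.35) with Smarca4.4 and -0.34 (-0.41 to -0.26) with Smarca4.6, or 74.7% and 79.1% of Nons. A difference at least as large in both libraries and in the same direction was found in 3.80% of genes. The hairpin libraries had more E-type cyclin and less of this inhibitor than Nons, and the log2 ratio of Cdkn1b to Ccne1 per exonic length was -2.72 (-2.86 to -2.58) in undifferentiated cells, -0.85 (-0.92 to -0.79) with Nons, -1.62 (-1.69 to -1.55) with Smarca4.4 and -1.74 (-1.82 to -1.67) with Smarca4.6. The ratio in both hairpin libraries thus lay between those of day 0 and Nons. These are transcript levels, whereas p27Kip1 is largely controlled through its degradation.

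Cdkn2a and Cdkn2b differed in opposite directions between day 0 and Nons. Cdkn2a had a log2 CPM of 4.79 in undifferentiated cells, 3.41 with Nons, 3.61 with Smarca4.4 and 3.33 with Smarca4.6. It was highest at day 0 and fell to 38.5% of that level in Nons, a difference of -1.38 (-1.56 to -1.20). Cdkn2b had a log2 CPM of 1.76 in undifferentiated cells, 2.79 with Nons, 2.89 with Smarca4.4 and 2.57 with Smarca4.6. It was lowest at day 0, where it rested on 63 reads, and was higher in Nons by 1.03 (0.64 to 1.45), an interval that reaches below 2-fold. Scaling on the autosomal median put this difference at 0.98, under 2-fold.

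The log2 ratio of Cdkn2a to Cdkn2b per exonic length was 3.28 (2.90 to 3.68) at day 0 and 0.87 (0.66 to 1.08), 0.96 (0.77 to 1.16) and 1.01 (0.77 to 1.26) with Nons, with Smarca4.4 and with Smarca4.6. The day 0 ratio stood apart from the others, which overlapped. Summed per exonic length, the locus gave 26.1 CPM per kb at day 0, of which Cdkn2a was 90.7%, and 12.9 to 15.7 at day 6, of which Cdkn2a was 64.6% to 66.9%. From Nons, Cdkn2a differed by 0.19 (0.02 to 0.37) with Smarca4.4 and by -0.081 (-0.28 to 0.12) with Smarca4.6. Cdkn2b differed by 0.100 (-0.12 to 0.32) and -0.23 (-0.48 to 0.03), so 3 of these 4 intervals included 0. Smarca4.6 was lower than Smarca4.4 for both, by 0.27 (0.08 to 0.47) for Cdkn2a and 0.33 (0.08 to 0.58) for Cdkn2b.

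Compared per exonic length, the order of the genes in Nons ran from Ccnb2 (93.6 CPM per kb) through Ccna2 (64.8), Ccne1 (32.1), Ccnd3 (19.4), Ccnd1 (18.5), Cdkn1b (17.8), Ccne2 (9.14), Cdkn2a (9.10) and Cdkn2b (4.98) to Ccnd2 (0.701). Neighbours in this order were apart by more than counting error except Ccnd1 and Cdkn1b (log2 step -0.010 to 0.12) and Ccne2 and Cdkn2a (-0.14 to 0.16). At day 0 the order began with Ccna2 (67.6) and Ccnb2 (66.5), which counting error did not separate, followed by Ccnd1 (57.8) and Ccne1 (40.4), and Cdkn2a (23.6) was above Ccne2 (9.88) and Cdkn1b (6.15). In both hairpin libraries Ccnd1 was above Ccnd3, and Ccne2 and Cdkn1b were not separated. With the longest coding transcripts Ccnd3 was the highest of the 10 at day 0 (148 CPM per kb) and the third in Nons (80.5).

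For each member, the gene whose log2 CPM, centred on its own mean, lay nearest over the 4 libraries was named. Cdkn1b was nearest to Otx2, a homeobox gene of early neural and epiblast cells, which had a log2 CPM of 5.22, 6.76, 6.34 and 6.41 in day 0, Nons, Smarca4.4 and Smarca4.6 (distance 0.015). Ccnd1 was nearest to Slc25a5, a mitochondrial ADP/ATP carrier (0.038), and Ccnd3 to the meiotic cohesin gene Rec8 (0.036). The others were Golm1 for Ccnd2, Spag17 for Ccne1, Rsl1 for Ccne2, Dynlt1c for Ccna2, Rnf141 for Ccnb2, Znrf2 for Cdkn2a and Amotl1 for Cdkn2b, at distances of 0.0077 to 0.056. With only 4 libraries and 13264 genes to choose from, a near match is a description of these libraries.

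The genes around the members in the cell cycle were then described from lists, each by its counts and median. The lists were chosen with earlier results of these data known, so their counts beside all genes are descriptions only. In Nons against day 0, S-phase genes (22 genes for replication and nucleotide supply) were mostly lower: 8 were at least 2-fold lower, 0 at least 2-fold higher, and their median was -0.68. Rrm2, the small subunit of ribonucleotide reductase, had a log2 CPM of 9.29 in undifferentiated cells, 7.12 with Nons, 7.36 with Smarca4.4 and 7.47 with Smarca4.6. Pola1, the catalytic subunit of DNA polymerase alpha, went from 8.50 to 6.70 in Nons, with 7.06 in Smarca4.4 and 7.10 in Smarca4.6. Pola1 is X-linked, and these female cells undergo X inactivation on differentiation. The part of X inactivation in the levels of Pola1 was not tested. In the hairpin libraries 20 of the 22 were above Nons with Smarca4.4 and 21 with Smarca4.6, where 56.5% and 58.9% of all genes were above 0, with list medians of 0.17 and 0.28. The largest difference in a hairpin library was 0.52 (Slbp, a histone mRNA binding protein, in Smarca4.6), and 0 of 22 passed 2-fold. The Nons library enters all of these comparisons, with one sign against day 0 and the other against the hairpin libraries.

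**Figure D4:**
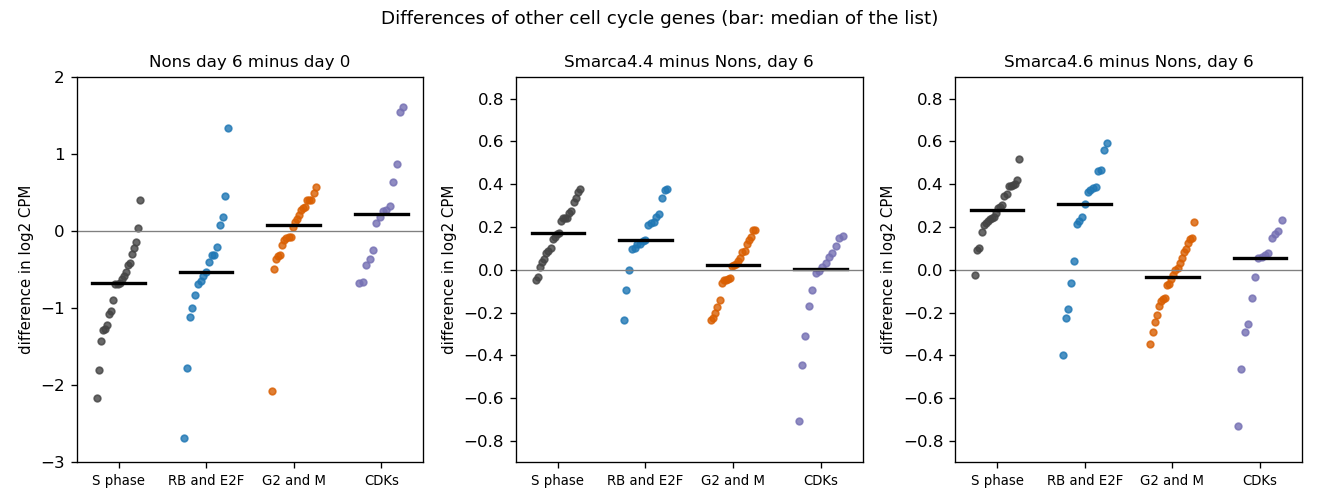
Difference in log2 CPM (vertical axis, on a wider scale in the day 0 panel) of each gene of the S-phase, RB and E2F, G2 and M-phase and CDK lists, 1 point per gene, with the list median as a bar. S-phase genes have a median of -0.68 in Nons day 6 minus day 0 and of 0.17 and 0.28 in Smarca4.4 and Smarca4.6 minus Nons, while the G2 and M-phase medians are 0.086, 0.022 and -0.034.

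The RB and E2F list (17 genes) had a median of -0.52 in Nons against day 0, with 3 genes at least 2-fold lower and 1 higher. E2f2 was at 4.37 log2 CPM at day 0, 1.68 with Nons and 2.06 with each hairpin, and E2f1 went from 6.20 to 4.42 in Nons, with 4.54 and 4.46 in Smarca4.4 and Smarca4.6. E2f8 was also lower, from 4.62 to 3.51 in Nons, with 3.85 and 3.90 in Smarca4.4 and Smarca4.6. E2f7 moved the other way, from 3.53 to 4.87, 5.08 and 5.33. With the hairpins the list medians were 0.14 and 0.31, 14 and 13 of 17 genes were above Nons, and 0 passed 2-fold. Tfdp1, the DNA-binding partner of the E2Fs, was higher than Nons by 0.25 (0.19 to 0.30) with Smarca4.4 and 0.59 (0.53 to 0.65) with Smarca4.6.

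G2 and M-phase genes (22 genes) had small medians, although single genes differed in both directions. Their median was 0.086 in Nons against day 0, 0.022 in Smarca4.4 and -0.034 in Smarca4.6. In Nons against day 0 the counting interval lay above 0 for 12 and below 0 for 9, beside 42.8% and 40.1% of all genes. Only Mybl2 passed 2-fold, at 8.94 log2 CPM at day 0 and 6.87 in Nons. Cdca8 differed by 0.57 in Nons against day 0 and by -0.20 and -0.24 with the hairpins, the signs seen for Ccnb2. Kif11 did not share them, at 0.28, 0.18 and 0.15. Mki67, a marker of cycling cells, was at 8.58, 8.50, 8.69 and 8.65 in the 4 libraries.

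Among 14 CDKs and their regulators, Cdk6, a partner of the D-type cyclins, and Cks1b, a CDK subunit that takes part in the degradation of p27Kip1, were at least 2-fold higher in Nons than at day 0. Cdk6 had a log2 CPM of 3.59 in undifferentiated cells, 5.20 with Nons, 4.49 with Smarca4.4 and 4.47 with Smarca4.6. Like Cdkn1b, it was highest in Nons and lower with each hairpin, by 0.71 (0.59 to 0.82) and 0.73 (0.61 to 0.85). Cdk4, the other partner, was much more even, at 8.69, 8.33, 8.32 and 8.57. The list medians were 0.22, 0.004 and 0.057.

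Of 11 other cyclins and inhibitors, 9 passed the minimum level. Cdkn1c, which encodes p57Kip2, the relative of p27Kip1, had a log2 CPM of 1.64 in undifferentiated cells, 4.05 with Nons, 4.94 with Smarca4.4 and 4.88 with Smarca4.6. It was higher in Nons than at day 0, as Cdkn1b was, but higher again with the hairpins, by 0.89 (0.77 to 1.02) and 0.83 (0.69 to 0.97), where Cdkn1b was lower. Cdkn1a, which encodes p21Cip1, was at 7.18, 6.51, 6.25 and 5.84, lowest in Smarca4.6. Cdkn2c, a low Ink4 gene, was at 1.85, -0.23, 0.90 and -0.49, and Cdkn2d, another, at 4.08, 4.02, 3.82 and 3.98. Ccng2, which encodes cyclin G2, was lower than Nons by 0.40 (0.32 to 0.47) with Smarca4.4 and by 0.67 (0.58 to 0.75) with Smarca4.6, in the opposite direction to the E-type cyclins. The list medians were 0.035, -0.019 and -0.25.

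The genes that feed into the D-type cyclins were divided between day 0 and Nons. Of the 15 found of 16, 8 were at least 2-fold higher and 4 at least 2-fold lower in Nons than at day 0. Their median was 1.46, and it was 0.57 for those with a mean log2 CPM of at least 3 and 0.91 as log2(CPM + 1). Dusp6 and Spry4, targets of the MEK and ERK pathway that 2i inhibits, went from log2 CPM values of 1.07 and -2.22 (the latter from 4 reads) at day 0 to 7.90 and 4.90 in Nons. Other targets of this pathway went both ways. Etv4, Junb, Egr1 and Fosl1 were higher in Nons than at day 0, by 4.33, 3.78, 3.25 and 2.58. The day 0 level of Fosl1 rested on 4 reads. Etv5 was lower in Nons, at 8.73 and 7.57, and so was Fos, short of 2-fold, at 2.29 and 1.35. Axin2 and Lef1, targets and effectors of Wnt signalling that GSK3 inhibition activates, went from 4.61 and 6.05 to 2.28 and 3.82. Ccnd1 is a known target of both pathways, and the part of either in its level was not tested.

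With the hairpins, 0 of these 15 genes passed 2-fold in Smarca4.4 and 3 in Smarca4.6, with medians of 0.019 and 0.37. The count in Smarca4.6 was 2 with median-of-ratios size factors or with a minimum mean log2 CPM of 3. The log2 CPM of Myc was 2.14 in undifferentiated cells, 4.94 with Nons, 5.73 with Smarca4.4 and 6.02 with Smarca4.6, higher than in Nons by 0.79 (0.69 to 0.88) and 1.08 (0.98 to 1.17). Mycn had 7.45, 5.52, 5.86 and 6.59, and was higher than in Nons by 0.34 (0.26 to 0.43) and 1.07 (0.99 to 1.15). Myc and Mycn are transcription factors that promote entry into S phase. Both were highest among the day 6 libraries in Smarca4.6, as were Ccnd1, Ccne1 and Ccne2. At day 0, Myc was at its lowest, whereas Mycn and Ccnd1 were at their highest. A part of Myc or Mycn in the levels of the cyclins was not tested. The third gene past 2-fold in Smarca4.6 was Egr1, an immediate early gene, at 2.62 in Nons and 4.07 in Smarca4.6.

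Of 11 genes of the ubiquitin ligases that degrade cyclins and inhibitors, 1 passed 2-fold, Fbxo4, at -0.13 log2 CPM at day 0 and 2.56 in Nons, and the medians were 0.23, 0.024 and 0.021. Skp2, which targets p27Kip1, was at 6.47, 5.53, 5.81 and 5.90. Among 16 neighbours and regulators of the Cdkn2a and Cdkn2b locus, 14 passed the minimum, of which 5 were at least 2-fold lower and 1 higher in Nons than at day 0, with a median of -0.59. Mtap, which lies beyond Cdkn2a on the side away from Cdkn2b, was at log2 CPM values of 7.03, 6.66, 6.87 and 6.86. Bmi1, a Polycomb repressor of the locus, had a log2 CPM of 5.39 in undifferentiated cells, 3.31 with Nons, 4.16 with Smarca4.4 and 3.70 with Smarca4.6, and the T-box repressor Tbx3 went from 6.92 to 0.57 in Nons. Bmi1 and Cdkn2a were both lower at day 6 than at day 0. The medians of this list with the hairpins were 0.090 and 0.10.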

How the data were processed

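RNA-seq libraries (TruSeq, 75 bp paired-end) were trimmed and aligned by the authors with hisat2 or tophat to an mm10 genome masked at positions that differ between the strains, and the deposited values are log2 CPM per gene from SeqMonk, both alleles combined. Strand use was not given in the sources used here.

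Back-transformed values came in whole steps (all values of up to 1000 reads did, within 0.05 reads), and 0 reads stood at 0.9 of a step, which gave the reads and totals (18599402, 45759793, 47143739 and 36495575 for day 0, Nons, Smarca4.4 and Smarca4.6). Differences of the deposited values were given with exact Clopper-Pearson 95% intervals. As PCR copies are not independent molecules, the intervals hold for counting error alone. No count model was run, as it has no spread to estimate from 1 library per group. Exonic lengths were unions of GENCODE M21 exons; promoters were from RefSeq. Members and lists were chosen with earlier results of these data known. The genes named are the members, Smarca4, up to 4 per list past 2-fold or needed to describe it, and the nearest gene to each member. Those needed for description, with no claim to the largest difference, are Ccnb1, Cdk4, Tfdp1, Mki67, Skp2, Mtap, Cdkn1a, Pou5f1, Cdx2, Elf5, Kdm5d, Axin2, Lef1, Myc, Mycn and Egr1. Slbp, Ccng2, Cdkn2d, Cdca8, Kif11, Etv4, Etv5, Fos, Fosl1 and Junb were chosen after their values were seen. Alternatives were log2(CPM + 1), other scalings, filters, a 1.5-fold threshold and transcript lengths. The scripts were tested on simulated data. Tools were matplotlib 3.10.9, pandas 2.3.3, scipy 1.17.1, numpy 2.4.6 and Python 3.11.15.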

Additional observations from a re-analysis of the deposited data

Results flagged for a closer look

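Of the members, 3 differed from Nons in opposite directions in the hairpin libraries, which was not tested for want of replicates. The share of all genes that did so was not computed, so this count has no background to be read against. On the log2 scale Ccna2 differed by 0.013 in Smarca4.4 and -0.035 in Smarca4.6, Cdkn2a by 0.19 and -0.081, and Cdkn2b by 0.100 and -0.23. Of these 6 counting intervals, 5 include 0, the exception being Cdkn2a in Smarca4.4. Centring on the autosomal median or median-of-ratios size factors left 2 such members, without Ccna2. Reads of 4 Y-linked genes were counted in cells labelled female: 0 in undifferentiated cells, 106 with Nons, 156 with Smarca4.4 and 165 with Smarca4.6, with Kdm5d at 0 in all 4 libraries. Set against depth, these sums were 0, 2.32, 3.31 and 4.52 CPM in the same order. Their source, and its part in the differences between libraries, was not tested.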

How the results depend on the processing

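With 1 library per group, none could be left out. No paired analysis was possible because the groups share a single replicate number. Of 120 recomputed differences of single members (log2(CPM + 1), centring on the autosomal median, and median-of-ratios size factors), 107 stayed inside the counting interval, 13 moved outside it and 0 of them changed sign outside it. Of 78 recomputed member counts and medians 6 moved, and of 240 list counts and medians 12 moved, by over 1.5 times for a count. Centring and median-of-ratios lowered all differences from Nons by 0.022 and 0.035 in Smarca4.4 and by 0.064 and 0.074 in Smarca4.6. They therefore moved the S-phase median in Smarca4.6 from 0.28 to 0.21 and 0.20, and turned the small median of the inputs to D-type cyclins in Smarca4.4 from 0.019 to -0.0034 and -0.016. A 1.5-fold threshold gave 1 member (Ccne2) in Smarca4.6 in place of 0. Cdkn2b fell below 2-fold between day 0 and Nons under both scalings and log2(CPM + 1), and a minimum mean log2 CPM of 3 removed it. The longest coding transcript as the length was chosen after seeing the data. With it the log2 ratio of Ccnd1 to Ccnd3 was -1.02 in undifferentiated cells, -1.79 with Nons, -1.48 with Smarca4.4 and -1.16 with Smarca4.6, a change of sign at day 0 and in both hairpin libraries. That of Ccnb2 to Ccna2 was -0.49, 0.070, -0.0042 and -0.23, a change of sign in both hairpin libraries. Of 30 levels per length 18 moved and 5, those named here, changed sign. The summed D-type cyclins were then at 47.4% of day 0 in Nons, and at 98.5% and 93.5% of Nons in Smarca4.4 and Smarca4.6, where exonic length gave 104% and 105%. Depth limits Ccnd2, Cdkn2a and Cdkn2b most.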
